A study of Rattus norvegicus with 18 samples.

Results

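The naïve cervical dorsal root ganglion (DRG) was described across genes in 6 of the 18 rats of the series, namely the unoperated rats 41, 42, 43, 44, 45 and 49. They are the 6 columns of the authors' count table whose headings carry these rat numbers. All rats were adult Lister hooded rats, and the naïve rats had neither surgery nor a viral vector. The other 12 rats had received bilateral pyramidotomy, which cuts the corticospinal tracts in the medulla, and forelimb injections of AAV1-CMV-NT3 or AAV1-CMV-GFP, and they are not compared here. The C6-C8 DRG of 1 side were pooled within each rat, so that 1 library stands for several ganglia of 1 animal, and poly(A) RNA was sequenced as 50 bp paired-end reads. Rats are named by the numbers in the headings of that table. The headings place 18 of 18 rats in the group that the study describes for them, whereas the count files attached to the single records sit under a title of another group for 17 of 18 rats.

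The DRG holds the cell bodies of sensory neurons, whose axons run to skin, muscle and joints and into the spinal cord. Each cell body is wrapped by satellite glia, its axon is ensheathed by myelinating or non-myelinating Schwann cells, and fibroblasts, blood vessels and resident macrophages lie between them. A library of whole ganglia mixes the RNA of all of these, so fewer cells of a type and less RNA per cell cannot be told apart.

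The reads counted on genes ranged from 10357766 in rat 44 to 16002410 in rat 42, with a median of 13115662. Between 13441 and 13873 genes had a read in a rat, 12758 genes had one in 6 of 6 rats, and 11719 genes had more than 10 reads on average. Levels are given as CPM, the count of a gene divided by the reads on genes of its library (scaled by TMM factors) and multiplied by 1000000, and 10 reads correspond to between 0.596 and 1.00 CPM. The Pearson correlation of log2 CPM between pairs of rats was between 0.981 and 0.992.

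The pool of reads was broad, and its most abundant members were cytoskeletal, vesicle and myelin genes. The most abundant gene took 1.25% to 1.39% of the reads of a rat, the 10 most abundant genes took 4.15% to 4.79%, and 50% of the reads lay on 794 to 916 genes. Genes were ordered by reads only, because transcript lengths were not used here and a longer transcript gives more reads. The authors also removed duplicate reads before counting, which can limit the counts of short abundant transcripts.

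*Map1b*, which encodes a microtubule-associated protein of growing and mature axons, had the most reads in 6 of 6 rats, with 12109.8 CPM in rat 42, a median of 12807 CPM and 14441 CPM in rat 44. *Nefm*, the medium neurofilament chain that sets axon calibre together with its partners, followed with 4552 CPM in rat 42, a median of 5267 CPM and 6281 CPM in rat 44. *Scd2*, a fatty acid desaturase that supplies unsaturated lipids to membranes, came next with 4525 CPM in rat 42, a median of 4829 CPM and 5238 CPM in rat 49. *Map1b* lay above both other genes in every rat, whereas the ranges of *Nefm* and *Scd2* overlapped.

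Among the other genes of the top 20, the vesicle and membrane genes were *Rtn4*, which encodes the myelin-associated inhibitor Nogo, *Cltc*, the clathrin heavy chain, *Serinc1*, *Canx*, an endoplasmic reticulum chaperone, and *Reep5*. *Rtn4* lay at 3292 to 4418 CPM (median 3948 CPM) and *Cltc* at 2919 to 3659 CPM (median 3403 CPM). The axonal genes were the neurofilament chains *Nefl* and *Nefh* and *Stmn2*, a regulator of microtubule ends, and *Pafah1b1* encodes Lis1, a partner of dynein in axonal transport. The rest included the translation factor *Eif4g2*, the 14-3-3 genes *Ywhaz* and *Ywhah*, the ubiquitin ligase *Nedd4*, the chaperone *Hsp90ab1*, the peripheral myelin gene *Pmp22* and 1 identifier without a matched symbol (NM_031686). Of these 20 genes, 16 were among the 20 most abundant in every rat, and together the 20 held 6.56% of the reads.

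**Figure D1:**
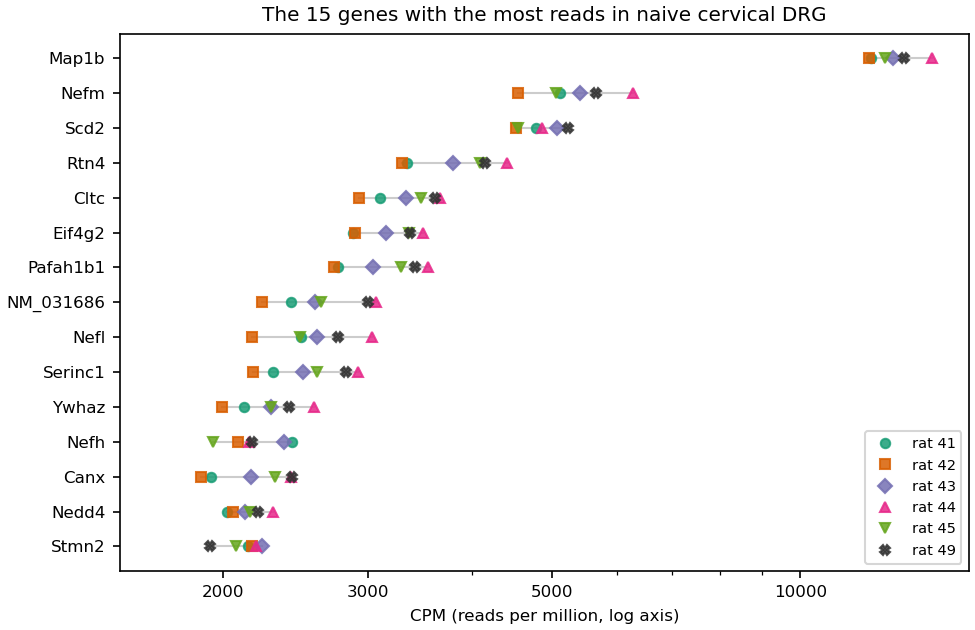
Each row is 1 of the 15 genes with the highest mean CPM and each symbol is 1 of the 6 naïve rats, on a log axis of CPM, with a grey line from the lowest to the highest rat. *Map1b* lies apart from the rest at 12109.8 CPM and above, and the other 14 genes lie between 1879 CPM (*Canx* in rat 42) and 6281 CPM.

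Neuron genes were abundant and their summed level was steady. Of 20 genes on the general neuron list 18 had more than 10 reads, and the list summed to 15386 CPM in rat 45, a median of 16444 CPM and 17580.2 CPM in rat 44. List sums here and throughout include every member in the table. The mean is 1.64% of the reads, with a CV over rats of 5.41%. The neurofilament chains led the list. *Nefl* had 2168 CPM in rat 42, a median of 2542 CPM and 3027 CPM in rat 44, and *Nefh*, the heavy chain of large myelinated axons, had 1944 CPM in rat 45, a median of 2158 CPM and 2422 CPM in rat 41. *Nefl* and *Nefm* were lowest in rat 42 and highest in rat 44, whereas *Nefh* was lowest in rat 45.

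Not all neuron genes followed the sum. *Sncg*, which encodes gamma-synuclein, had 215, 209.6, 180.4, 103, 108 and 94.98 CPM in rats 41, 42, 43, 44, 45 and 49. *Prph*, peripherin, an intermediate filament of thin axons, had 237, 251, 213, 144, 143 and 131 CPM in the same order of rats. *Tubb3*, the neuronal beta-tubulin, had 598, 603, 564, 404, 423 and 361 CPM in the same order of rats. In each of these 3 genes rats 41, 42 and 43 lay above rats 44, 45 and 49 without overlap, as they did in 7 of the 18 neuron genes in all.

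This division of the rats was the main axis of the whole table. On the first principal component of log2 CPM, which held 43.05% of the variance, rats 41, 42 and 43 lay between -26.7 and -5.74 and rats 44, 45 and 49 between 11.2 and 23.5. The 3 highest rats were 41, 42 and 43 in 2852 genes (24.3%) and 44, 45 and 49 in 2509 genes (21.4%), whereas the next most frequent trio accounted for 4.86% of genes. Beside it, the share of reads outside annotated genes was 32.5% to 33.3% in rats 41, 42 and 43 and 33.97% to 34.6% in rats 44, 45 and 49. The part of that share in the division was not tested, and no batch is given in the labels.

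Genes of each class of sensory neuron were read, though not every defining gene was. Among 16 genes of large-fibre neurons, which serve touch and proprioception, 11 had more than 10 reads and the list summed to 2025 CPM in rat 42, a median of 2400.5 CPM and 2582 CPM in rat 49. *Scn1a*, a sodium channel of large neurons, had 604 CPM in rat 42, a median of 726 CPM and 806 CPM in rat 44. *Vsnl1*, a calcium sensor, had 449 to 706 CPM (median 600.0 CPM). *Ntrk2*, the receptor of brain-derived neurotrophic factor, had 368 to 442 CPM (median 412 CPM) on 2 identifiers. *Pvalb*, the calcium buffer parvalbumin of proprioceptors, was steadier, with 102 CPM in rat 45, a median of 110.4 CPM and 118 CPM in rat 41 and a CV of 5.47%. All 3 genes named first were lowest in rat 42. *Runx3*, a transcription factor of proprioceptors, had at most 0.393 CPM, and *Etv1*, another, had at most 0.785 CPM on 2 identifiers.

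Of the 15 genes of peptidergic nociceptors, the peptide-releasing neurons of pain and heat, 13 had more than 10 reads and the list summed to 2584 CPM in rat 42, a median of 2929.8 CPM and 3018 CPM in rat 43. The sodium channels *Scn9a*, *Scn11a* and *Scn10a* led it, with means of 1248, 513 and 383 CPM beside a mean sum of 2864 CPM. The sum thus reflects mainly these channels, whereas the peptide precursors *Calca* and *Tac1* added 3.51 and 0 CPM. *Scn9a*, the channel Nav1.7, had 1083 CPM in rat 41, a median of 1276 CPM and 1411 CPM in rat 44. *Scn11a*, the channel Nav1.9, had 417 to 603 CPM (median 528 CPM), and *Scn10a*, the channel Nav1.8, had 335 to 453 CPM (median 382 CPM). The transduction channel *Trpv1*, gated by heat and capsaicin, had 83.8 CPM in rat 44, a median of 91.8 CPM and 106 CPM in rat 43. *Scn11a* was lowest in rat 42 and *Scn9a* in rat 41, so the rat with the lowest value differed among these channels.

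The nonpeptidergic nociceptor list, with 10 of 15 members over 10 reads, summed to 1185 CPM in rat 42, a median of 1249.9 CPM and 1351 CPM in rat 43. *Ret*, the signalling receptor of the GDNF family, had 529.8 CPM in rat 42, a median of 650.3 CPM and 705 CPM in rat 45, on 2 identifiers. Its partner *Gfra1* had 284 to 442 CPM (median 344 CPM). The means of *Ret* and *Gfra1* were 641 and 354 CPM beside a mean sum of 1264 CPM, so the sum reflects mainly these receptors. The defining marker *Mrgprd* added a mean of 4.27 CPM. *Mrgprb4*, a receptor of a set of skin-innervating C fibres, had 52.8 CPM in rat 42, a median of 78.8 CPM and 96.1 CPM in rat 49. *Ret* and *Mrgprb4* were lowest in rat 42, in which *Gfra1* was highest. *Nppb*, a peptide of itch neurons, had at most 0.628 CPM. Of 8 genes of cold-sensing neurons and C-fibre low-threshold mechanoreceptors all had more than 10 reads, and *Trpm8*, the menthol and cold channel, led them with 121 CPM in rat 42, a median of 132 CPM and 141 CPM in rat 41. *Th*, the enzyme that marks C-fibre low-threshold mechanoreceptors in the mouse, stood near the limit of the filter with 0.301 to 1.08 CPM (median 0.816 CPM).

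Several textbook DRG genes were listed at 0 or nearly so, and the 5 named here have 3 or more transcript identifiers each. *Ntrk3*, the receptor of neurotrophin-3, *Tac1*, the precursor of substance P, and *P2rx3*, the ATP receptor of nociceptors, had 0 reads on every one of their identifiers in 6 of 6 rats. *Calca*, the precursor of CGRP, had 1.54 CPM in rat 49, a median of 3.64 CPM and 5.21 CPM in rat 44, and *Mbp*, a major myelin protein, had 3.26 CPM in rat 45, a median of 3.77 CPM and 4.41 CPM in rat 44. Of the symbols with 1 identifier 12.9% were at 0 in all 6 rats (15223 symbols), against 28.96% of those with 2 identifiers (328 symbols) and 45.2% of those with 3 or more (157 symbols). Read pairs listed as ambiguous between identifiers made up 2.79% to 3.00% of all read pairs. Whether such a gene had little RNA or its reads were not assigned cannot be told apart here, so no level is taken from these values. The levels of *Ntrk2* and *Ret*, with 2 identifiers each, may miss unassigned reads as well. *Npy*, an injury-induced neuropeptide, *Col1a2*, a fibrillar collagen, and *Mcpt10*, a mast cell protease, were also listed at 0, with 1 identifier each. For them, as for other genes listed at 0 below, little RNA and unassigned reads cannot be told apart either. Of the 394 list entries, 291 had more than 10 reads on average, 53 had 10 or fewer, 16 were listed at 0 and 34 were not analysed here.

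Satellite glia genes gave the steadiest sum among the lists of cells native to the ganglion. The list summed to 2168 CPM in rat 49, a median of 2221 CPM and 2295 CPM in rat 42, with a CV of 2.01%, and 13 of 16 members had more than 10 reads. *Glul*, glutamine synthetase, which clears glutamate around the cell body, had 365 CPM in rat 43, a median of 381 CPM and 504 CPM in rat 42, and *Sparcl1*, a matricellular protein, had 370.5 to 445 CPM (median 386 CPM). The members varied more than their sum did, with a median CV of 13.6% beside 11.9% over all genes. *Fabp7*, a lipid carrier of immature and satellite glia, had 52.8, 50.3, 107, 84.2, 92.1 and 85.6 CPM in rats 41, 42, 43, 44, 45 and 49, with rats 41 and 42 below the other 4. *Kcnj10*, the Kir4.1 potassium channel, had 15.03 to 23.9 CPM (median 17.9 CPM). *Aqp4* and *Slc1a3*, with 4 identifiers each, were listed at 0. Genes shared by satellite glia and Schwann cells were led by *S100b*, a calcium-binding protein of glia, with 801 CPM in rat 45, a median of 849 CPM and 888 CPM in rat 43, and by the membrane glycoprotein *Gpm6b* with 661 to 864 CPM (median 762 CPM).

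Myelin genes varied more between rats than neuron or satellite glia genes. All 18 members of the myelinating Schwann cell list had more than 10 reads, and their sum was 5261 CPM in rat 45, a median of 6293 CPM and 7605 CPM in rat 49. The median CV of its members was 20.8%, beside 10.7% in the neuron list. *Pmp22*, whose dosage is altered in inherited neuropathy, had 1642 CPM in rat 45, a median of 2019.7 CPM and 2519 CPM in rat 49. How often each rat was highest or lowest over all genes was not counted, so counts of members per rat, here and below, lack that background. Rat 45 had the lowest value in 14 of the 18 genes and rat 49 the highest in 8. *Egr2*, the transcription factor of the myelin programme, followed the same order with 68.4 CPM in rat 45, a median of 89.97 CPM and 118 CPM in rat 49. Of the non-myelinating Schwann cell list, the adhesion molecule *L1cam* had 457 CPM in rat 44, a median of 529.9 CPM and 598 CPM in rat 43, the low-affinity neurotrophin receptor *Ngfr* had 253 to 354 CPM (median 305 CPM) and the cadherin *Cdh2* had 276 to 315 CPM (median 294 CPM). *L1cam*, *Ngfr* and *Ncam1* are also expressed by neurons.

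The sums of the connective tissue and vessel lists were highest in rat 42, which was also an end of the first principal component over all genes, at -26.7. The counts of members per rat again lack a background over all genes. The fibroblast and perineurial list summed to 3158 CPM in rat 44, a median of 3886 CPM and 4854 CPM in rat 42, with rat 42 highest in 9 of 11 members and rat 44 lowest in 8. *Dcn*, the proteoglycan decorin, had 1039 CPM in rat 44, a median of 1295 CPM and 1466 CPM in rat 49. *Col3a1*, a fibrillar collagen, had 546 CPM in rat 44, a median of 619 CPM and 708 CPM in rat 42, and *Apod*, a lipocalin of the endoneurium, had 297 CPM in rat 44, a median of 418 CPM and 623 CPM in rat 42. *Dcn* was an exception to the order, being highest in rat 49. The list of the meninges and choroid plexus also had its highest sum in rat 42, at 122 CPM beside 90.2 CPM at the median. *Slc22a8*, an organic anion transporter, had 12.98 CPM in rat 42 and nearly as much, 12.76 CPM, in rat 41, beside 6.92 CPM at the median. The choroid plexus gene *Ttr* had at most 0.357 CPM.

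Endothelial genes summed to 379 CPM in rat 44, a median of 412 CPM and 503 CPM in rat 42, and 17 of 20 had more than 10 reads. *Slc2a1*, the glucose transporter of barrier endothelium, had 59.3 CPM in rat 44, a median of 70.8 CPM and 97.5 CPM in rat 41. *Abcb1a*, a drug efflux pump, had 52.8 to 69.6 CPM (median 59.5 CPM), and *Tek*, the angiopoietin receptor, had 40.9 to 48.6 CPM (median 43.2 CPM). Rat 42 was highest in 11 of the 17, though not in *Tek* or *Slc2a1*.

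Mural cells, the smooth muscle cells and pericytes of vessels, gave the clearest case of 1 rat standing apart among the vessel genes. Their list summed to 163 CPM in rat 44, a median of 187 CPM and 314 CPM in rat 42. *Acta2*, smooth muscle actin, had 11.9, 33.3, 13.3, 12.5, 10.1 and 13.1 CPM in rats 41, 42, 43, 44, 45 and 49. *Myh11*, smooth muscle myosin, had 30.6, 71.3, 30.4, 32.3, 27.001 and 35.2 CPM in the same order of rats. Rat 42 lay above the other 5 rats by more than their whole spread in both. A gene was counted as having 1 rat apart where the gap of the highest or lowest rat to its neighbour, divided by the range over the 6 rats on the log2 scale, exceeded Dixon's 95% critical value for 6 samples. This was so for 3 of the 12 mural genes (*Acta2*, *Myh11* and *Cnn1*, in rat 42 each time), whereas over all 11719 genes it was so for 3.16%. The pericyte genes *Pdgfrb*, with 36.5 CPM in rat 44, a median of 40.2 CPM and 58.9 CPM in rat 42, and *Rgs5*, with 26.02 to 43.3 CPM (median 31.8 CPM), were highest in rat 42 too.

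**Figure D2:**
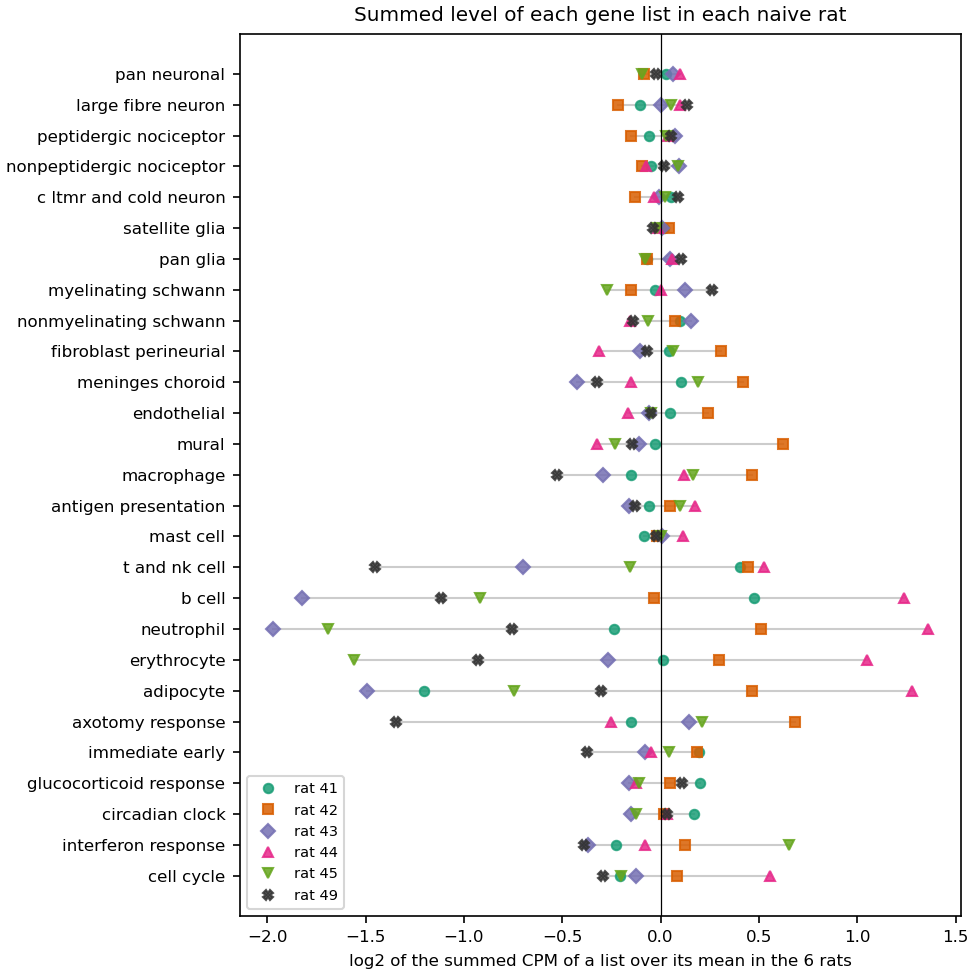
Each row is 1 of 27 gene lists and each symbol is 1 naïve rat. The horizontal axis is the log2 ratio of the list's summed CPM in that rat to the mean over the 6 rats. The neuron and satellite glia lists cluster around 0, whereas the neutrophil, erythrocyte, adipocyte and B cell lists spread widely with rat 44 on the right, and rat 49 is on the left of the axotomy list.

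Macrophage genes summed to 332 CPM in rat 49, a median of 475 CPM and 659 CPM in rat 42. Of 16 members, rat 42 was highest in 14 and rat 49 lowest in 11. Rats 42 and 49 were also the ends of the first principal component over all genes, at -26.7 and 23.5. *Lyz2*, lysozyme of myeloid cells, had 181 CPM in rat 49, a median of 265 CPM and 376 CPM in rat 42. *Mrc1*, a scavenger receptor of resident macrophages, had 35.9 CPM in rat 44, a median of 47.5 CPM and 60.7 CPM in rat 42, and *Csf1r*, the receptor that maintains them, had 22.2 CPM in rat 49, a median of 30.6 CPM and 51.1 CPM in rat 42. Genes of antigen presentation showed a similar order. *Cd74*, the invariant chain of class II molecules, had 31.8 CPM in rat 49, a median of 67.5 CPM and 105 CPM in rat 42, and *RT1-Da*, a rat class II chain, had 26.7 to 68.8 CPM (median 55.1 CPM). *B2m*, the class I light chain made by every nucleated cell, varied far less, with 1080.3 CPM in rat 41, a median of 1145 CPM and 1377 CPM in rat 44.

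Mast cell genes other than *Kit* had few reads. *Cpa3*, the mast cell carboxypeptidase, had 2.86 CPM in rat 42, a median of 4.06 CPM and 5.10 CPM in rat 45, and *Cma1*, a chymase, had 1.29 to 2.82 CPM (median 2.18 CPM). The list sum of 80.7 to 92.6 CPM consisted largely of *Kit* at 70.3 to 78.4 CPM, a receptor that nociceptors also express.

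Genes of blood cells varied widely, and the sums of the neutrophil, erythrocyte, T and NK cell and B cell lists were each highest in rat 44. The neutrophil list summed to 31.6 CPM in rat 43, a median of 89.2 CPM and 318 CPM in rat 44. *S100a9*, a calprotectin subunit stored in neutrophils, had 50.8, 81.8, 15.4, 159.9, 18.02 and 39.2 CPM in rats 41, 42, 43, 44, 45 and 49, and its partner *S100a8* had 11.2 to 118 CPM (median 27.2 CPM). Rats 41, 42 and 44 were the 3 highest in 5 of 5 neutrophil genes, as in 4.76% of all genes. The erythrocyte list summed to 27.3 CPM in rat 45, a median of 74.2 CPM and 167 CPM in rat 44, and rat 44 was highest in 5 of 5 genes. *Hbb*, beta-globin, of which near-identical copies may share reads, had 63.2, 70.03, 56.2, 103, 18.5 and 28.8 CPM in the same order of rats, and *Slc4a1*, the anion exchanger of red cells, had 1.97 to 28.8 CPM (median 4.71 CPM). Of the 8 T and NK cell genes over 10 reads, 6 had rats 41, 42 and 44 highest, and rat 44 itself was highest in 4 of them. *Cd3e*, a subunit of the T cell receptor complex, had 4.59, 2.14, 0.550, 4.31, 0.748 and 0.428 CPM in the same order of rats. *Cd4*, which rat macrophages also carry, had the most reads of the T cell list with 5.73 to 16.9 CPM (median 10.4 CPM).

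Adipocyte genes separated the rats in another order. *Adipoq*, the hormone adiponectin, had 0.645, 9.77, 0.628, 20.4, 4.01 and 5.22 CPM in rats 41, 42, 43, 44, 45 and 49. *Fabp4*, a fatty acid carrier of fat cells, had 1.29, 12.8, 1.18, 28.9, 4.56 and 7.70 CPM in the same order of rats. Rat 44 was highest in both, followed by rat 42, and rats 41 and 43 were lowest. The lipase *Lipe*, the other member of the list over 10 reads, had 4.41 to 7.92 CPM (median 5.46 CPM) and was lowest in rat 44. Skeletal muscle genes were low apart from *Pvalb*, with *Myl11*, a fast myosin light chain, at 1.16 to 2.80 CPM (median 1.67 CPM) and *Ckm*, muscle creatine kinase, at no more than 0.179 CPM. Spinal cord genes were low as well, with a sum of 27.95 to 35.03 CPM for spinal neurons beside the far higher sums of the ganglion's neuron and glia lists. *Mog*, a central myelin gene, had 8.62 to 11.2 CPM (median 9.90 CPM), and *Mnx1*, *Slc32a1*, *Pax2* and *Lhx5*, genes of spinal neurons, were listed at 0 in 6 of 6 rats. The Y-linked genes *Eif2s3y* and *Ddx3y* summed to at most 0.143 CPM.

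The axotomy response list holds genes that sensory neurons are known to raise after nerve damage, and in these unoperated rats it varied 4.08-fold in its sum, with 91.9 CPM in rat 49, a median of 234 CPM and 375 CPM in rat 42. *Atf3*, a transcription factor of injured neurons, had 50.7, 93.4, 60.3, 39.7, 59.7 and 8.04 CPM in rats 41, 42, 43, 44, 45 and 49. *Gal*, the neuropeptide galanin, had 18.3, 34.7, 18.5, 12.6, 20.8 and 2.22 CPM in the same order of rats. *Vip*, vasoactive intestinal peptide, had 4.44, 8.46, 4.71, 5.61, 10.2 and 0.171 CPM in the same order of rats. Rat 49 lay far below the other 5 rats in all 3. It was the lowest rat in 10 of the 12 genes over 10 reads, and rat 42 was the highest in 10. In 5 of the 12, 1 rat stood apart, beside the 3.16% of all genes. These were *Atf3*, *Gal*, *Vip* and *Sprr1a* for rat 49 and *Fst*, a binder of activins, for rat 42. The macrophage list above was likewise lowest in rat 49 and highest in rat 42, and its part in these values was not tested.

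Most of the other members had their lowest and highest values in the same pair of rats. *Reg3b*, a secreted lectin, had 4.23, 28.8, 23.8, 5.61, 8.98 and 0.342 CPM in rats 41, 42, 43, 44, 45 and 49. *Gadd45a*, a stress-response gene, had 40.3 CPM in rat 49, a median of 73.05 CPM and 103 CPM in rat 42, *Csf1*, the macrophage growth factor, had 18.996 to 37.2 CPM (median 25.4 CPM), and *Hspb1*, a small heat shock protein, had 13.4 to 39.4 CPM (median 26.3 CPM). *Sprr1a*, a cornifin that promotes neurite growth, had 0 reads in rat 49 and up to 3.39 CPM in rat 42, where 3 reads in rat 49 would be 0.257 CPM. *Nts*, neurotensin, with 2.14 to 2.79 CPM (median 2.39 CPM), had the smallest CV of the 12 genes, at 11.03%. In a list of epithelial genes, *Tgm1*, a transglutaminase of skin, had 3.66, 10.5, 4.95, 3.31, 4.62 and 0.257 CPM in the same order of rats, again with rat 49 apart, while the keratins *Krt5* and *Krt14* had fewer than 10 reads on average. The immediate early genes, which neurons and other cells switch on within minutes of a stimulus, were also lowest in rat 49 in 8 of 13 genes and highest in rat 41 in 8. *Jun* had 73.2 CPM in rat 49, a median of 93.8 CPM and 119 CPM in rat 42, *Dusp1* had 42.5 to 69.2 CPM (median 60.9 CPM) and *Fos* had 4.11 to 9.35 CPM (median 8.10 CPM), so their spread was far smaller than that of *Atf3*.

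Interferon-stimulated genes were highest in rat 45 in 9 of the 11 members over 10 reads, and the list summed to 272 CPM in rat 49, a median of 321 CPM and 560.5 CPM in rat 45. *Mx2*, an antiviral GTPase, had 93.1, 134, 96.7, 110.1, 215 and 83.5 CPM in rats 41, 42, 43, 44, 45 and 49. *Rsad2*, the antiviral enzyme viperin, had 13.7, 26.3, 11.7, 32.2, 63.7 and 18.3 CPM in the same order of rats. *Usp18*, which removes ISG15 from proteins, had 4.73, 10.1, 3.93, 7.41, 20.3 and 3.51 CPM in the same order of rats. Rat 45 was above the other 5 in each. *Ifi27*, with 100.1 to 114 CPM (median 106 CPM), had the narrowest range of those named, and *Ifit1* was highest in rat 44.

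**Figure D3:**
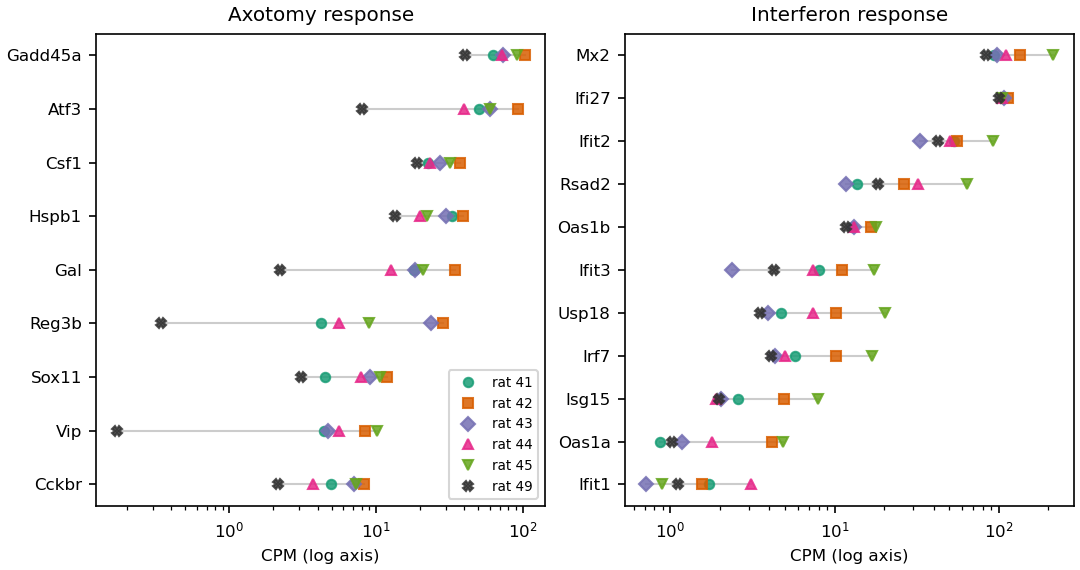
CPM of the axotomy response genes with a mean of at least 5 CPM (left) and of the interferon genes with a mean of at least 1 CPM (right) in each naïve rat, on log axes, with a grey line from the lowest to the highest rat. Rat 49 (cross) is the lowest in each of the 9 axotomy genes shown, and rat 45 (downward triangle) is the highest in 9 of the 11 interferon genes.

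Promoter sequences from RefSeq (GRCr8), covering 250 bases before to 50 bases after a gene's start, were matched for 7 of the 12 interferon genes. The interferon-stimulated response element was searched on both strands as GAAA, any 2 bases and GAAA. It was found in 6 of these promoters, against 3.92% of all 33469 promoters of the same length, as a description and not as a site. The 6 include *Ifi27*, which was highest in rat 42 and holds the motif more than once. Stretches upstream of the start of 4 members that were highest in rat 45 are shown with the motif in capitals, written in the direction of the gene, where a motif on the opposite strand reads TTTC, any 2 bases and TTTC.
Rsad2, chr6:48788238-48788287 of GRCr8 on the minus strand: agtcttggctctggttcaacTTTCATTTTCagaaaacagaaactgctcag
Ifit3, chr1:241527262-241527311 of GRCr8 on the plus strand: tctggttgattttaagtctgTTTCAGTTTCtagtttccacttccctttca
Irf7, chr1:205800063-205800112 of GRCr8 on the minus strand: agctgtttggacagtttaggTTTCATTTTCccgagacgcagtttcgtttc
Oas1b, chr12:41395876-41395925 of GRCr8 on the minus strand: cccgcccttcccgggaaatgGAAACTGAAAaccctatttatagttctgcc

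Of the 11 clock genes over 10 reads, 4 had rats 41, 42 and 44 as the 3 highest and 2 had rats 43, 45 and 49, beside 4.76% and 3.69% of all genes. Clock genes form a feedback loop in which BMAL1 with CLOCK or NPAS2 activates the *Per* and *Cry* genes and the proteins of these repress it. *Npas2* had 1.15, 1.55, 7.07, 1.60, 10.4 and 7.96 CPM in rats 41, 42, 43, 44, 45 and 49. *Bmal1* had 20.4, 25.7, 43.6, 21.9, 41.2 and 41.4 CPM in the same order of rats. Rats 43, 45 and 49 were above rats 41, 42 and 44 in both of these activators. The repressors *Per2*, *Per3* and *Ciart* had the reverse order. *Per2* had 25.2, 29.1, 9.82, 17.3, 11.9 and 12.1 CPM in the same order of rats. *Per3* had 24.6, 31.2, 13.9, 22.2, 12.7 and 16.001 CPM in the same order of rats, and *Ciart*, a repressor of the loop, had 7.31, 3.33, 1.57, 6.31, 1.90 and 1.37 CPM in the same order of rats. Rats 41, 42 and 44 were thus highest in *Per2*, *Per3* and *Ciart*, and they were also the 3 highest in the neutrophil genes above. *Nr1d2*, with 194 to 278 CPM (median 241 CPM), *Cry2*, with 94.1 to 115 CPM (median 106 CPM), and *Nr1d1*, with 2.38 to 4.66 CPM (median 3.35 CPM), did not share this order, nor did the repressors *Per1* and *Cry1*. *Per1* had 45.8, 37.2, 32.2, 28.4, 25.3 and 26.8 CPM in the same order of rats, so that rats 41, 42 and 43 were highest, and *Cry1* had 10.03, 14.4, 10.2, 10.2, 11.8 and 10.4 CPM in the same order of rats. *Clock* (2 identifiers) and *Dbp* (3 identifiers) were at or near 0. The time of day at which tissue was taken is not given in the sources used here.

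**Figure D4:**
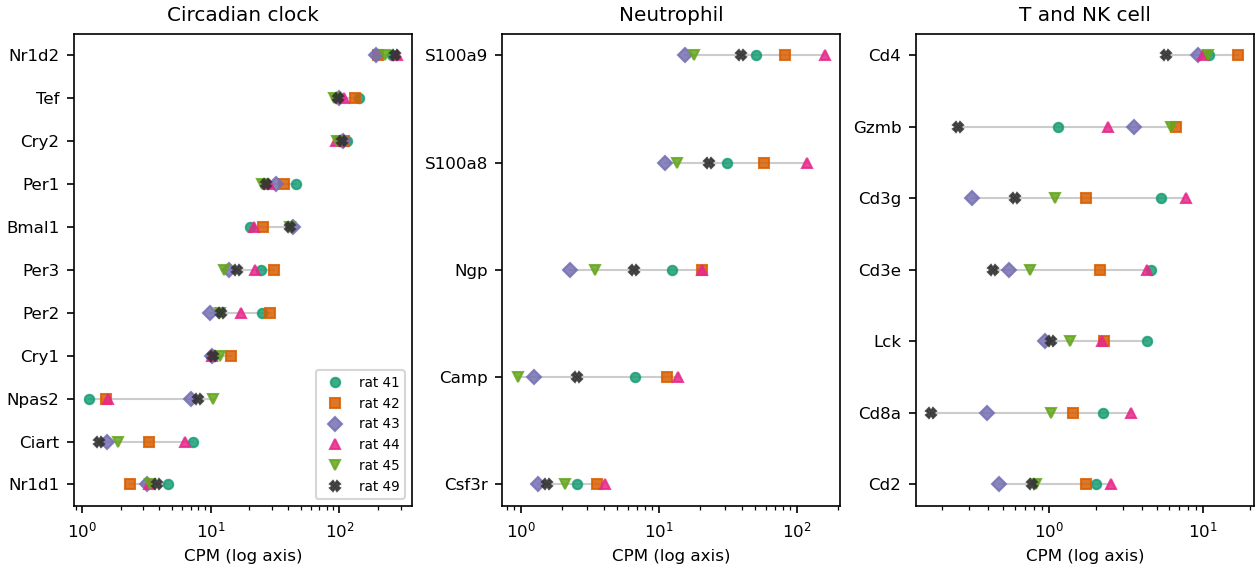
CPM of the circadian clock genes with a mean of at least 1 CPM, of the neutrophil genes with a mean of at least 1 CPM and of the T and NK cell genes with a mean of at least 0.5 CPM and reads in every rat, on log axes, 1 symbol per naïve rat. Rats 41, 42 and 44 (circle, square and upward triangle) are lowest in *Npas2* and highest in *Ciart* and in all 5 neutrophil genes.

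*Ciart* also carries the E-box CACGTG, which reads the same on both strands and is the element bound by these activators, 3 times upstream of its start. The E-box was found in 4 of 15 clock promoters and in 6.42% of all promoters. *Ciart* was chosen because, among *Per2*, *Per3* and *Ciart*, its highest rat exceeded its lowest by the largest ratio, though at the lowest levels in CPM. The stretch with 1 of its E-boxes in capitals is shown, and another of them follows in lower case.
Ciart, chr2:186112256-186112301 of GRCr8 on the minus strand: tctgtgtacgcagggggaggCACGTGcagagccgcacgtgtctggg

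Genes of cell division were highest in rat 44 in 7 of 9 members. *Mki67*, a marker of cycling cells, had 18.8 CPM in rat 45, a median of 20.98 CPM and 51.3 CPM in rat 44. *Ccna2*, cyclin A2, had 4.54 to 11.02 CPM (median 5.83 CPM), and *Rrm2*, which makes DNA precursors, had 13.5 to 25.6 CPM (median 16.5 CPM). *Ccnb1*, cyclin B1, had 19.8 to 25.8 CPM (median 22.8 CPM). The sums of the blood cell lists were highest in rat 44 as well, with 318 CPM for neutrophil and 167 CPM for erythrocyte genes, and their part in these values was not tested. Among glucocorticoid-responsive genes, *Tsc22d3*, which encodes the anti-inflammatory protein GILZ, had 384 CPM in rat 43, a median of 415 CPM and 474 CPM in rat 49, and *Fkbp5*, a co-chaperone of the glucocorticoid receptor, had 39.7 CPM in rat 44, a median of 51.1 CPM and 74.2 CPM in rat 41. Rat 41 was highest in 6 of 11 genes of this list.

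The Hox genes record the level of the body axis from which cells came, low paralogue numbers towards the head and high ones towards the tail. Reads lay on the low and middle groups. Of 15 genes of paralogue groups 1 to 8 in the table, 11 had more than 10 reads and their sum was 92.1 to 112 CPM. *Hoxd1* had the most with 32.2 to 53.2 CPM (median 41.8 CPM), followed by *Hoxc4* with 13.98 to 17.1 CPM (median 15.9 CPM), *Hoxb7* with 10.01 to 11.6 CPM (median 11.3 CPM) and *Hoxb5* with 7.74 to 10.5 CPM (median 8.73 CPM). *Hoxc8* had 6.67 to 8.16 CPM (median 7.57 CPM), *Hoxd4* had 2.94 to 4.19 CPM (median 3.46 CPM) and *Hoxb8* had 2.22 to 3.46 CPM (median 3.26 CPM). *Hoxb3*, *Hoxd3*, *Hoxb4* and *Hoxc5* lay between 1.70 and 3.39 CPM. In group 9, *Hoxd9* had 4.11 to 5.65 CPM (median 5.32 CPM), whereas *Hoxb9* and *Hoxc9* had fewer than 10 reads on average. Of 7 genes of groups 10 to 13, 6 were at 0 in all 6 rats and *Hoxd10* had at most 1 read in a rat. *Hoxa2*, *Hoxa6* and *Hoxa7* were at 0 as well.

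Across all genes, the spread between rats exceeded counting error for most. The median CV of CPM over the 11719 genes was 11.9%, with quartiles of 7.89% and 20.4%, and 90.3% of genes had a CV above that expected from counting alone. The common biological coefficient of variation from edgeR was 0.140. For genes with 10 to 100 reads the median CV was 25.4% beside 15.8% from counting, and for genes with 1000 to 10000 reads it was 8.32% beside 2.23%. The highest rat exceeded 2 times the lowest in 16.2% of all genes, but in 0.870% of those with 1000 to 10000 reads.

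**Figure D5:**
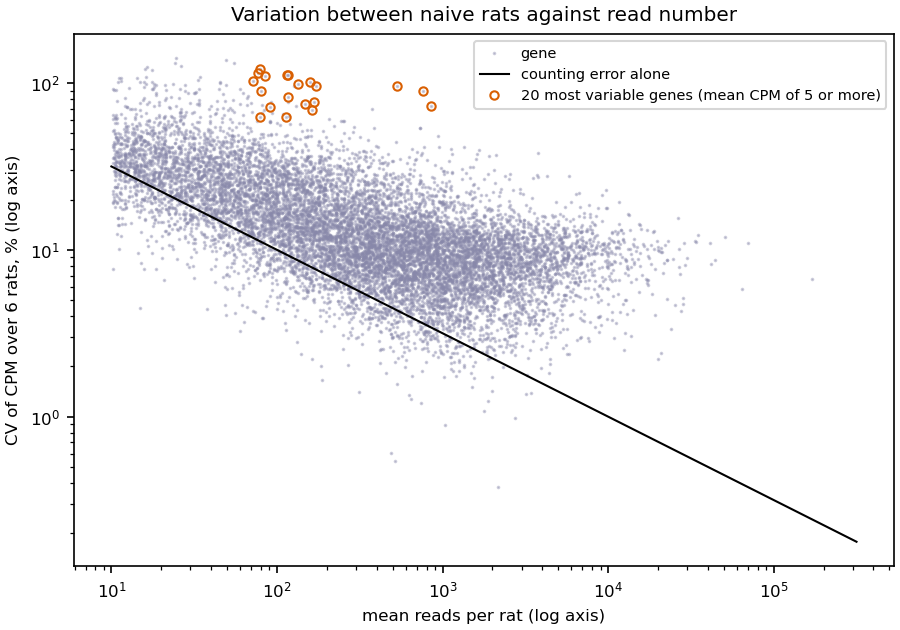
Each dot is 1 gene, with its mean reads per rat against the CV of its CPM over the 6 naïve rats, both on log axes. The line is the CV that counting error alone would give, and open circles mark the 20 most variable genes. Most dots lie above the line, and the circles lie at CVs of 62.3% to 121%.

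The 20 genes with the largest tagwise biological coefficient of variation among the 9361 with a mean of at least 5 CPM fell into a few kinds. The fat cell genes *Car3*, *Thrsp*, *Adipoq* and *Fabp4* took 4 of the first 5 places, and *Car3*, a carbonic anhydrase of fat and muscle, had 0.502, 11.6, 0.157, 19.03, 3.13 and 2.91 CPM in rats 41, 42, 43, 44, 45 and 49. The neutrophil genes *Np4*, *Camp*, *Mmp8*, *S100a8*, *S100a9* and *Ngp* formed the largest kind, and *Slc4a1* is a red cell gene. *Reg3b*, *Crisp3*, *Serpina3n*, *Csrp3*, *Vip*, *Ptprh* and 1 identifier without a symbol (NM_001108834) were lowest in rat 49. *Crisp3*, a secreted cysteine-rich protein, had 10.2, 18.8, 7.54, 9.62, 22.2 and 0.342 CPM in the same order of rats, and *Csrp3*, a LIM protein, had 7.10, 13.7, 5.66, 3.61, 7.14 and 0.257 CPM in the same order of rats. *Slfn4* had 23.4, 92.1, 16.7, 97.5, 118 and 24.1 CPM in the same order of rats, highest in rat 45 as the interferon genes were.

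The genes that varied least among the 4199 with a mean of at least 50 CPM were of varied function, and 1 of the 10 has no symbol. The identifier without a symbol had the smallest CV, 0.377%, which is below the 2.14% that counting alone would give. *Oat*, ornithine aminotransferase, had 204 CPM in rat 49, a median of 205 CPM and 209 CPM in rat 42, a CV of 0.975%, which is below the 1.91% that counting alone would give. *Pitrm1*, a mitochondrial peptidase, had a CV of 1.08% and *Gabarap*, an autophagy adaptor, one of 1.37%, beside 2.37% and 1.77% from counting. *Laptm4b*, *Cnot1*, *Hspb8*, *Rnf145*, *Dennd5a* and *Trpc4ap* had CVs between 1.24% and 1.95%, of which those of *Laptm4b*, *Rnf145* and *Trpc4ap* also lay below counting error. The 10 genes were picked for small variation among 4199, so such CVs do not show how steady their RNA was between rats. None of these was on a list of cell type markers.

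Genes in which 1 rat stood apart numbered 370, which is 3.16% of those tested. Chance alone flags about 5% of such groups, so this share was no larger than chance gives, and the genes named below were picked for their gap. The genes were spread over the rats with 69 for rat 41, 90 for rat 42, 39 for rat 43, 77 for rat 44, 36 for rat 45 and 59 for rat 49. The 3 genes with the largest distance to the nearest rat, at a mean of at least 5 CPM, differed in kind between the rats. In rat 41 they were *Apold1*, an early-response gene of endothelium, at 185 CPM against at most 108 CPM in the others, *Pde3b*, a cyclic nucleotide phosphodiesterase, at 59.7 against at most 28.7 CPM, and *Cyyr1*, at 43.5 against at least 75.3 CPM. In rat 42 they were the smooth muscle genes *Acta2* and *Myl9*, a myosin light chain at 23.6 against at most 10.2 CPM, and *Itga8*, an integrin of contractile cells, at 38.2 against at most 16.1 CPM.

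Rat 44 was high in *Hmgb2*, a chromatin protein of dividing cells, at 57.3 against at most 28.3 CPM, and in *Ccna2*, and it was low in *Thbs4*, a matrix thrombospondin, at 21.7 against at least 39.8 CPM. Rat 43 was low in *Rnase4*, a secreted ribonuclease, at 34.2 against at least 46.4 CPM, in *Sfrp4*, a Wnt inhibitor, and in *Cdca7l*. Rat 45 was high in *Tmprss2*, a membrane serine protease, at 28.02 against at most 18.996 CPM, and in *Olr1*, and it was low in *Pdxp*. In rat 49 the genes were *Vip*, *Crisp3* and NM_001108834, as described above.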

How the data were processed

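Total RNA of pooled C6-C8 DRG was made into stranded poly(A) libraries. Per the labels, the authors converted reads with bcl2fastq 1.8.4, aligned them with TopHat2 (Rnor_6.0), kept 1 read of each set of duplicates marked by Picard, and deposited raw HTSeq counts per RefSeq transcript identifier, together with totals of unassigned reads, which were left out of library sizes. The deposited table lists 15075 identifiers, of which 14193 were matched to symbols in a RefSeq table of GRCr8. The 882 without a symbol held 5.12% of the naïve reads. Identifiers of 1 symbol were summed for the gene lists and families, and elsewhere a gene is 1 identifier.

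Counts were scaled with edgeR 4.0.16 (TMM, R 4.3.3) to CPM, and log2 CPM used a prior count of 2. Genes needed more than 10 reads on average. CVs, Dixon gap ratios and tagwise dispersions were computed over the 6 rats with Python 3.11.15 (pandas 2.3.3, numpy 2.4.6, scipy 1.17.1) and edgeR, and the scripts were tested on simulated data. DESeq2 1.42.0 gave alternative size factors and dispersions. Transcript lengths were not used, so genes were not ranked per length. Floors of 3 reads cover counting error only.

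The rats, gene lists and measures were chosen with earlier results of these data known. The genes named were the 20 with the highest CPM, up to 3 leading members and the defining markers of each list, members at 0, the 20 most and 10 least variable genes, up to 3 genes per rat and the Hox genes. Other list members, the trios of highest rats and the gene families were picked after their values were seen. No comparison between groups was made. Some members of the lists are not reported here.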

Additional observations from a re-analysis of the deposited data

Results flagged for a closer look

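Of 379 measures looked at (library measures, summary shares, list sums, list members over 10 reads and other named genes), 33 had 1 of the 6 rats apart, in that its gap to the nearest other rat exceeded, as a share of the whole range, Dixon's 95% critical value for 6 samples. Chance alone flags about 5% of such groups. The genes named per rat were selected for this gap, so their number carries no information.

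In rat 49, 10 genes were low. *Atf3* was at 8.04 CPM, *Gal* at 2.22 CPM, *Fos* at 4.11 CPM, *Sprr1a* at 0 CPM, *Vip* at 0.171 CPM, *Crisp3* at 0.342 CPM, *Csrp3* at 0.257 CPM, *Tgm1* at 0.257 CPM, *Ptprh* at 0.685 CPM and NM_001108834 at 0.513 CPM. In rat 42, the summed CPM of the mural list was 314, and *Acta2* was at 33.3 CPM, *Myh11* at 71.3 CPM, *Myl9* at 23.6 CPM, *Cnn1* at 6.31 CPM, *Fst* at 3.81 CPM, *Cdh5*, an endothelial cadherin, at 40.7 CPM and *Itga8* at 38.2 CPM, all of them high. In rat 44, the share of reads in the most abundant gene was high at 1.39%, *Hmgb2* at 57.3 CPM and *Ccna2* at 11.0 CPM were high, and *Thbs4* at 21.7 CPM and *Flt1*, a receptor of vascular growth factor, at 25.2 CPM were low. In rat 41, *Pde3b* at 59.7 CPM and *Apold1* at 185 CPM were high, and *Cyyr1* at 43.5 CPM and *Olig2*, a factor of the oligodendrocyte lineage, at 2.80 CPM were low. In rat 43, *Sfrp4* at 8.72 CPM, *Rnase4* at 34.2 CPM and *Cdca7l* at 5.42 CPM were low. In rat 45, *Tmprss2* at 28.0 CPM and *Olr1* at 7.69 CPM were high, and *Pdxp* at 7.75 CPM was low.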

How the results depend on the processing

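Leaving out each rat in turn moved the median CV between 11.2% and 12.4%, the common biological coefficient of variation between 0.131 and 0.148, and the 8 list sums tested by less than the spread between rats. The files attached to records titled naïve belong to 6 other rats, which the study places in its pyramidotomy groups, some with NT3 and some with GFP. They are thus a mix of operated groups and not another naïve set, and their values do not measure the uncertainty of the naïve baseline. With those rats the median CV was 15.9% in place of 11.9% and the common biological coefficient of variation 0.193 in place of 0.140. The share of genes with 1 rat apart was 5.85% in place of 3.16%. The mean sums were 17523 CPM for neuron, 2306 CPM for satellite glia, 5161 CPM for myelinating Schwann cell and 470.1 CPM for endothelial genes. The mean CPM of 53 of 65 named genes moved by less than the spread between rats with those rats, and that of 65 of 65 did so without TMM. All 18 rats together, naïve and operated, gave a median CV of 14.4% and a biological coefficient of variation of 0.168. DESeq2 dispersions gave 0.124. The median CV was 10.5% for genes with more than 50 reads and 14.8% for every gene with a read, and the share with 1 rat apart was 3.57% without TMM. Counting unassigned reads in the library size lowered the mean sums, by construction, to 6909, 938, 2672, 179.9, 86.7, 1658, 202 and 36.0 CPM for neuron, satellite glia, myelinating Schwann cell, endothelial, mural, fibroblast, macrophage and mast cell genes. Without members shared with another list the mast cell sum was 11.9 CPM. Chosen after seeing the data, leaving out rat 44 moved the CV of the neutrophil sum from 87.9% to 69.5% and of the erythrocyte sum from 61.3% to 45.6%. Leaving out rats 44 and 42 moved that of the adipocyte sum from 78.8% to 36.7%. Leaving out rat 49 moved that of the axotomy sum from 40.1% to 26.9%, and leaving out rat 45 that of the interferon sum from 30.6% to 15.3%. The causes were not tested beyond these settings. No paired analysis was possible because the naïve rats form 1 group and no comparison between groups was made. With 6 libraries and 1 per rat, technical and animal-to-animal spread cannot be told apart, and genes under 10 reads were not described beyond their counts.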

Other observations

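Gene families were formed from the symbols after the values had been seen, and they are given as summed CPM over all members in the table. The voltage-gated sodium channel alpha subunits, which start and carry the action potential, had 8 of 9 members over 10 reads and summed to 2806 CPM in rat 42, a median of 3301 CPM and 3446 CPM in rat 49. Potassium channel genes, which set excitability, had 69 of 90 members over 10 reads and summed to 2948 CPM in rat 42, a median of 3232 CPM and 3311 CPM in rat 49. *Kcnab1*, an accessory subunit, had 341 to 527 CPM (median 462 CPM), and *Kcna1*, a channel of myelinated axons, had 266 to 313 CPM (median 293 CPM). Among TRP channels, 15 of 22 passed the filter, led by *Trpm7* with 281 to 362 CPM (median 329 CPM) and by *Trpa1*, the irritant receptor, with 226 to 268 CPM (median 241 CPM). All 3 families were lowest in rat 42. Of the acid-sensing channels, *Asic1* had 136 to 168 CPM (median 149 CPM) and *Asic3*, the form of muscle afferents, had 51.2 to 81.99 CPM (median 65.3 CPM). Of the opioid receptors, the nociceptin receptor *Oprl1* had 97.3 to 106 CPM (median 101 CPM) and the kappa receptor *Oprk1* had 3.21 to 5.73 CPM (median 3.89 CPM). No level is taken for the mu receptor *Oprm1*, which has 6 identifiers.

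Families of general cell function separated into steadier and less steady ones. The 37 proteasome genes summed to 5568 CPM in rat 42, a median of 5753 CPM and 5992 CPM in rat 44, with a CV of 2.48%, and the kinesin motors summed to 4865 CPM in rat 42, a median of 5057 CPM and 5204 CPM in rat 49, with a CV of 2.81% and *Kif1b* at 1459.6 to 1561 CPM (median 1507 CPM). The tubulins varied more, with 2598 CPM in rat 49, a median of 3093 CPM and 3420.4 CPM in rat 41 and a CV of 11.004%. Cytosolic ribosomal proteins, with 71 of 81 members over 10 reads, summed to 8074 CPM in rat 49, a median of 9013 CPM and 9566 CPM in rat 41. Tubulins and ribosomal proteins were thus lowest in rat 49 and highest in rat 41. Of the matrix genes, the 22 collagens, 19 of them over 10 reads, summed to 1307 CPM in rat 44, a median of 1590.3 CPM and 1704 CPM in rat 42, and *Col1a1* had 160.4 to 235 CPM (median 219 CPM). The 17 semaphorins, guidance cues of axons, all passed the filter and summed to 1526 CPM in rat 42, a median of 1613 CPM and 1782 CPM in rat 49. Of 13 SOX factors, *Sox4* had 43.3 to 62.8 CPM (median 53.3 CPM), *Sox2* had 25.5 to 39.04 CPM (median 33.3 CPM) and *Sox10*, the regulator of peripheral glia, had 7.21 to 15.1 CPM (median 10.7 CPM).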
